A study of Mus musculus with 240 samples.

Results

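The 9 genes described here are P2ry12, P2ry13, Tmem119, Cx3cr1, Csf1r, Sall1, Siglech, Gpr34 and Aif1. They were chosen by symbol as genes known for homeostatic microglia, and they are 9 of the 34623 genes in the deposited table. No measured value entered the rule, but earlier results of these data were known when the set was chosen. The study captured mouse oligodendrocyte precursor cells (OPCs), the cells that give rise to myelinating oligodendrocytes, by laser microdissection of brain sections during the steps that precede glioma. Bulk libraries came from wild-type animals (WT) and from Trp53-/- Nf1-/- animals (CKO), which lack 2 tumour suppressors, at 12 and 90 dpi, counted in days from the start of tamoxifen. At 150 dpi the bulk groups were WT and tumour cells labelled Trp53-/- Nf1-/-. The animals numbered 5 WT and 7 CKO at 12 dpi, 5 WT and 7 CKO at 90 dpi, and 6 WT and 7 with tumours at 150 dpi. All groups received tamoxifen and all bulk captures are marked tdTomato-positive in their titles. A second kind of library held RNA of 10 captured CKO cells, with 56 libraries at 12 dpi and 56 at 90 dpi, and aliquots split from a pool of such cells served as controls, with 40 at each of these times. Cre driver and age are not given in the sources used here.

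Microglia are the resident macrophages of the brain. In the resting brain they survey the tissue with motile processes, depend on signals through the receptor Csf1r for survival, and hold a set of surface genes that distinguishes them from macrophages that enter from blood. P2ry12 and P2ry13 are receptors for extracellular nucleotides, and P2ry12 steers processes toward injury. Cx3cr1 is the receptor for the neuronal chemokine Cx3cl1, and Gpr34 is a receptor for lysophosphatidylserine. Tmem119 and Siglech are surface proteins used as microglia markers. Sall1 is a transcription factor that maintains microglial identity and is also used in other tissues, such as the developing kidney. Aif1, which encodes Iba1, binds actin in microglia and other macrophages. In activated microglia the surface genes are known to be reduced, while macrophages of other origin carry Csf1r and Aif1 as well. These genes are not used as OPC markers, and a laser-captured spot can hold RNA of cells and processes beside the targeted one.

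The promoter windows of 3 members are shown because they belong to the neighbours P2ry12 and P2ry13, whose levels parted in tumours, and to Aif1, the gene with the largest rise there. Each is the 250 bases upstream of the RefSeq start on GRCm38.p6, read 5′ to 3′ on the gene's strand, and capitals mark GAGGAA or its reverse complement TTCCTC, the core of a site known for the myeloid factor PU.1.
P2ry12 (chr3:59262986-59263235, minus strand): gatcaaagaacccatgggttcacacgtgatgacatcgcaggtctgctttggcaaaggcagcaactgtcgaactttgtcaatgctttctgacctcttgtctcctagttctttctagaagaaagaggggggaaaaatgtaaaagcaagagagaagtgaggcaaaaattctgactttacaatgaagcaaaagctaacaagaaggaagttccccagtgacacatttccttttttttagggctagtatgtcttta
P2ry13 (chr3:59210883-59211132, minus strand): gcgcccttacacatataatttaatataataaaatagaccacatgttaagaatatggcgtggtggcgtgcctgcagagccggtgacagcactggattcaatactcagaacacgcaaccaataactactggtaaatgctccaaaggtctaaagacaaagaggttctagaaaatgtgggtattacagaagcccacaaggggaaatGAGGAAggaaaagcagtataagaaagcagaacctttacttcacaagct
Aif1 (chr17:35176053-35176302, minus strand): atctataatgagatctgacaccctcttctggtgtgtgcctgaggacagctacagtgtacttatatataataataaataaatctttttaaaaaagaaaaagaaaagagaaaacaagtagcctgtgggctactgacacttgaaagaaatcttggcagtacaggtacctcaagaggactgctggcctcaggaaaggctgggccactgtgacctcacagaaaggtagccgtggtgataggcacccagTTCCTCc

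The longer motif GAGGAAGT (PU.1) and the composite element of PU.1 with IRF8 were searched on both strands and occurred in none of the promoter windows of the 6 members that have one, against 2.44% and 2.30% of 32851 windows of the same length. GAGGAA, which is part of GAGGAAGT and was added after the first search, occurred in the P2ry13 window 48 bases upstream of the RefSeq start and, on the other strand, in the Aif1 window 7 bases upstream. The Aif1 match lies inside the gene span given below for Aif1, which reaches beyond the RefSeq start. GAGGAA was present in 23.3% of all windows.

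On GRCm38 the 9 genes lie on 8 chromosomes. P2ry12 (ENSMUSG00000036353, chr3:59216272-59262871) and P2ry13 (ENSMUSG00000036362, chr3:59207892-59210882) are neighbours on the minus strand, and both lie inside Med12l, a gene on the plus strand that shares 9 exon bases with P2ry12 and 0 with P2ry13. Gpr34 (ENSMUSG00000040229, chrX:13632089-13640858, plus strand) lies inside Cask on the opposite strand and shares 0 exon bases with it. Csf1r (ENSMUSG00000024621, chr18:61105572-61132149, plus strand) overlaps 873 exon bases of Hmgxb3 on the opposite strand. Cx3cr1 (ENSMUSG00000052336, chr9:119901616-120069879, minus strand) spans 9 other genes and shares 78 exon bases with the antisense gene Gm33858. Whether counting used the strand is not stated, so reads from these shared bases cannot be told apart. Tmem119 (ENSMUSG00000054675, chr5:113793729-113800516), Sall1 (ENSMUSG00000031665, chr8:89027235-89044162), Siglech (ENSMUSG00000051504, chr7:55768178-55778925) and Aif1 (ENSMUSG00000024397, chr17:35170991-35176068) overlap no other gene.

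The 48 bulk libraries held 93694 to 23199230 counts with a median of 9999625, and 11 of the 37 animals had 2 libraries, which were summed. These 11 were all 7 tumours and otherwise CKO animals. No WT animal had 2, so the number of libraries differed throughout between tumours and WT. A pair of libraries stood apart. The library of WT_21167 (90 dpi) held 93694 counts over 10743 genes, with 24 counts for the 9 members and 4 of them at 0. The second library of CKO_20647 (90 dpi) held 9468941 counts but only 13265 genes, and 7 members were at 0 in it. The other 46 libraries detected 15358 to 20712 genes and correlated with their group at a median r of 0.941 to 0.990, against 0.904 and 0.888 for these 2, and the bulk tests were also run without them. Without its second library CKO_20647 was the highest CKO animal at 90 dpi for 7 members, at 38.6 CPM for P2ry12, 26.7 for Cx3cr1, 11.7 for Tmem119, 9.58 for Gpr34 and 11.9 for Aif1. The CKO ranges below include that library. Nf1, one of the targeted genes, averaged 312 ± 41.2 CPM (counts per 1000000, SD, n = 5) in WT and 191 ± 16.1 (n = 7) in CKO at 12 dpi, and Trp53 32.3 ± 8.78 and 31.4 ± 3.70. Counts over a whole gene do not show the deleted part. OPC markers were present in every bulk group, and the summed 6 neuron markers stood above the 10 OPC markers outside tumours, at 5950 to 9257 against 1978 to 3526 CPM in WT animals at 150 dpi. RNA of neuron markers was thus measured in the captures, and which cells it came from was not tested.

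All 9 members were measured in WT captures and passed the filter on low counts. Per kilobase of exon, over the 16 WT animals, Sall1 was the highest at 29.5 ± 5.51 CPM per kb (SD, n = 16), and its lowest animal, 20.3, was above the highest of P2ry12, 19.7. P2ry12 followed at 11.2 ± 3.67 and Csf1r at 5.57 ± 1.28 CPM per kb. The other 6 had ranges that overlapped: P2ry13 at 3.69 ± 0.91, Cx3cr1 at 3.33 ± 1.39, Tmem119 at 3.20 ± 1.88, Gpr34 at 2.98 ± 1.75, Aif1 at 2.29 ± 1.97 and Siglech at 1.79 ± 0.78. Neighbours in this order did not differ beyond their spread, while P2ry13 and Cx3cr1 were each above Siglech in 15 of 16 WT animals. Fewer microglia in a capture and less RNA per microglial cell cannot be told apart in bulk samples. Which cells held the RNA of each member, Sall1 among them, was not tested.

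**Figure D1:**
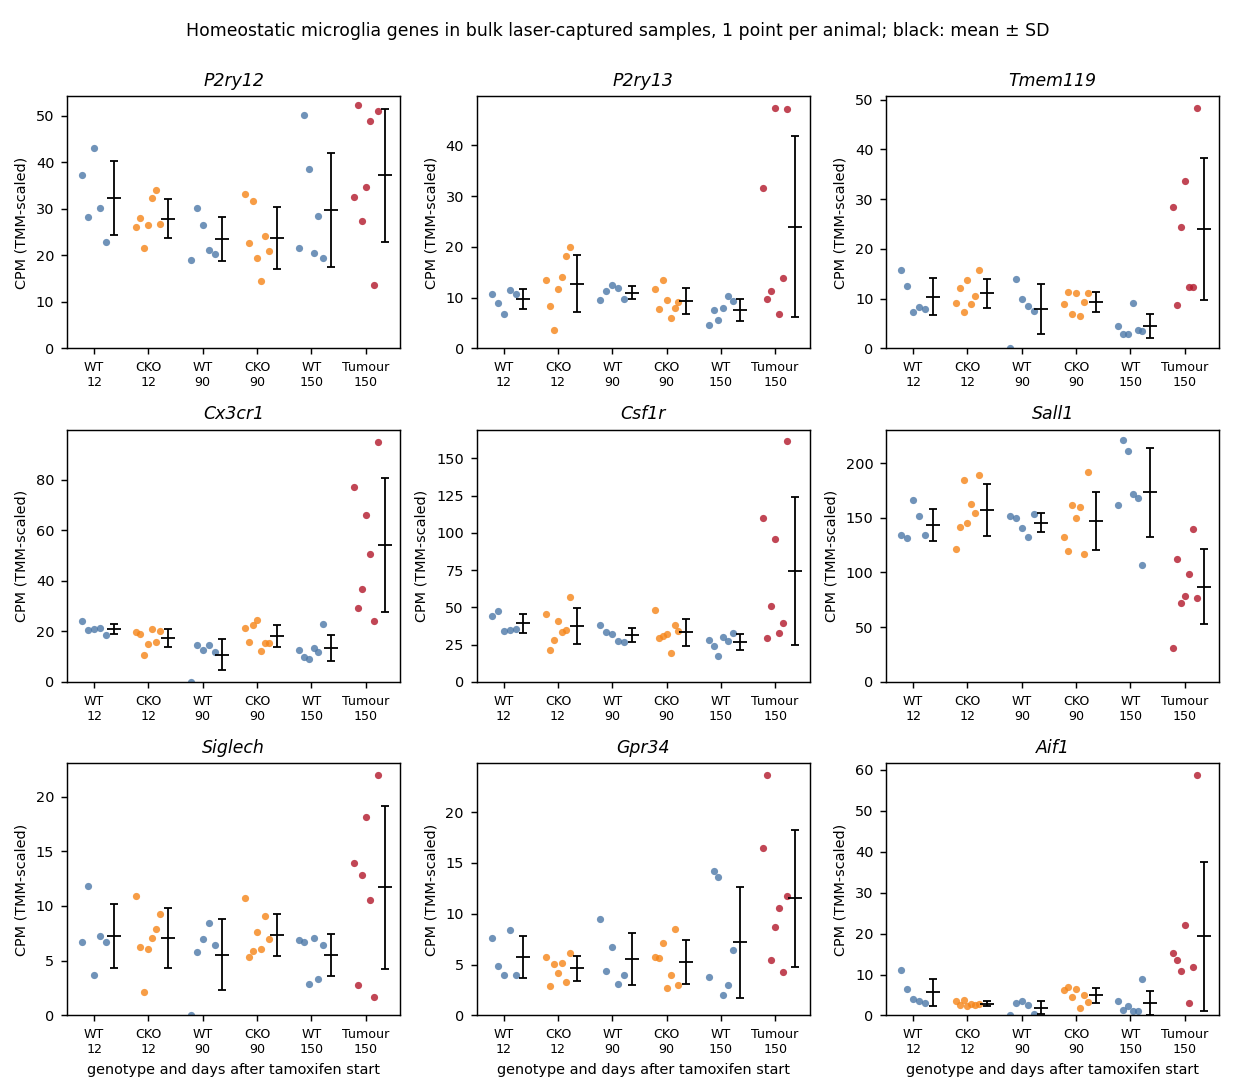
Level of each gene in bulk captures, in TMM-scaled CPM on a linear axis, with 1 point per animal and black bars for mean ± SD, by genotype and days from tamoxifen start. Tumours (red) are spread widely and lie above the WT animals at 150 dpi for Cx3cr1, while Sall1 is lower in tumours, at a mean of 87.0 against 173 CPM.

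Before tumours, no member passed the test between genotypes. At 12 dpi edgeR's quasi-likelihood test called 0 of 9 members between CKO and WT, none had an unadjusted p under 0.05, and DESeq2 called 0 as well. Of all 16349 genes tested, 0.0183% were called at this time. The fitted log2 differences of the members ranged from -0.98 to 0.39 with a median of -0.06. At 90 dpi the count was again 0 of 9 by both tools, with 0 members at an unadjusted p under 0.05 and a background of 0.0489%, and the differences ranged from -0.28 to 1.01 with a median of 0.13. Without the 2 libraries 0 of 9 were called at 90 dpi, from -0.17 to 1.16 with a median of 0.20. Aif1 was the lowest member at 12 dpi, at -0.98, and the highest at 90 dpi, at 1.01.

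Aif1 in WT animals at 12 dpi was 11.2, 6.43, 4.02, 3.48 and 3.04 CPM, and in CKO animals it had a lowest value of 2.32, a median of 2.69 and a highest of 3.79. At 90 dpi the order of the group medians was the reverse. WT held 0, 0.466, 2.62, 3.08 and 3.54 CPM, the 0 being the shallow library, and CKO had a lowest value of 1.72, a median of 5.06 and a highest of 6.97, which was 11.9 for the same animal without its second library. Groups overlapped at both times. The change of the genotype difference from 12 to 90 dpi was 2.00 on the log2 scale for Aif1, with an adjusted p of 1 by edgeR, and 2.12 without the 2 libraries (adjusted p again 1). This interaction called 0 of 9 members by both tools (1 at an unadjusted p under 0.05) against a background of 0%.

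Time alone moved no member past the threshold. CKO at 90 against 12 dpi gave 0 of 9 members called by both tools (0 at an unadjusted p under 0.05; background 0%), and WT at 90 against 12 dpi gave 0 of 9 by both (1 at an unadjusted p under 0.05; background 0.00612%). That member was Cx3cr1, which was 18.6 to 24.1 CPM in the 5 WT animals at 12 dpi and 0, 11.9, 12.6, 14.8 and 14.8 at 90 dpi. These groups did not overlap, as for 2.96% of all genes, and the log2 difference was -0.70 ± 0.31 (SE) with an adjusted p of 0.995 by edgeR. Without WT_21167, the 4 remaining animals averaged 13.5 ± 1.52 CPM. WT at 150 against 90 dpi gave 0 of 9 by both tools (1 at an unadjusted p under 0.05; background 0.0183%). Here Tmem119 had the largest difference, -1.10 ± 0.37 on the log2 scale (adjusted p = 0.517), and -1.15 without the 2 libraries (adjusted p = 0.474), with 4.45 ± 2.40 CPM (n = 6) at 150 dpi.

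Tumours differed from WT of the same time in most of these genes. Against WT at 150 dpi, edgeR called 6 of 9 members higher and 1 lower, with a median log2 change of 1.47, where 46.2% of all 16349 genes were called (24.3% higher and 21.9% lower) and the median of all genes was 0.06. Tmem119, Cx3cr1, Aif1, P2ry13, Csf1r and Siglech rose, Sall1 fell, and P2ry12 and Gpr34 did not pass the test. With close to 1 in 2 genes called, passing the threshold is not by itself particular to this set, so sizes and single animals are given below. Against CKO at 90 dpi, which shares the tumours with the first comparison, 7 of 9 were called higher and 1 lower against a background of 49.1% (26.4% higher and 22.6% lower). The median log2 change there was 1.16 for the members and 0.12 for all genes.

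The neighbouring nucleotide receptors parted. P2ry12 in the 6 WT animals at 150 dpi had a lowest value of 19.5, a median of 25.0 and a highest of 50.2 CPM, and in the 7 tumours 13.7, 34.6 and 52.2. The groups covered nearly the same range, and the log2 difference was 0.34 ± 0.23 with an adjusted p of 0.241. Without Tumor_21349, the lowest tumour, P2ry12 passed, at 0.53 with an adjusted p of 0.0376. Against CKO at 90 dpi (14.5, 22.7 and 33.1 CPM) P2ry12 was higher by 0.57 ± 0.22 (adjusted p = 0.0321), a call lost in 10 of 45 alternative settings. One of these left out the 2 libraries that stood apart and gave 0.44 with an adjusted p of 0.105. P2ry13 ran from 4.59 through a median of 7.79 to 10.4 CPM in WT at 150 dpi and from 6.88 through 13.9 to 47.5 in tumours. The 3 highest tumours, at 31.6, 47.2 and 47.5 CPM, stood far above the highest WT animal, and the other 4 lay between 6.88 and 13.9. P2ry13 rose by 1.66 ± 0.37 against WT (adjusted p = 3.6e-04) and by 1.39 ± 0.35 against CKO at 90 dpi (adjusted p = 0.00102). Med12l, in which both genes lie, was lower in tumours than in WT by 0.51 on the log2 scale (adjusted p = 0.0207), so it moved opposite to P2ry13.

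Cx3cr1, the chemokine receptor, separated the groups. WT animals at 150 dpi ran from 9.07 through a median of 12.2 to 23.1 CPM and tumours from 24.2 through 50.8 to 95.0. It was the only member of the 9 whose groups did not overlap in this comparison, a separation shown by 15.7% of all genes. The rise was 1.99 ± 0.27 on the log2 scale against WT (adjusted p = 1.6e-07) and 1.59 ± 0.25 against CKO at 90 dpi (adjusted p = 2.3e-06), where the highest CKO animal, 24.3, just overlapped the lowest tumour.

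Csf1r, the survival receptor, was 17.6, 27.8 and 33.0 CPM (lowest, median and highest) in WT at 150 dpi and 29.6, 51.1 and 162 in tumours. Of the tumours, 2 (29.6 and 32.9 CPM) were inside the WT range and 5 were above it. The rise was 1.47 ± 0.29 against WT (adjusted p = 9.2e-05) and 1.16 ± 0.28 against CKO at 90 dpi (adjusted p = 6.3e-04). The 873 exon bases shared with Hmgxb3 bear on this value, and their part in it was not tested. Gpr34, the lysophosphatidylserine receptor, was 1.98, 5.15 and 14.2 CPM in WT at 150 dpi and 4.24, 10.5 and 23.7 in tumours. It did not pass the test against WT, at 0.74 ± 0.40 (adjusted p = 0.131), and was called higher against CKO at 90 dpi, at 1.10 ± 0.38 (adjusted p = 0.0142), where CKO animals lay between 2.70 and 8.52 CPM. DESeq2 called Gpr34 higher against WT, as did edgeR without WT_21591, and the call against CKO was lost without Tumor_16839 and with the deepest library of each animal alone, with adjusted p up to 0.0878. Its host gene Cask was 0.05 higher in tumours than in WT and was not called.

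Of the surface markers, Tmem119 had the smallest adjusted p after Cx3cr1. WT animals at 150 dpi held 2.83, 3.61 and 9.17 CPM and tumours 8.75, 24.4 and 48.3, so that a single WT animal reached into the tumour range. The rise was 2.40 ± 0.35 (adjusted p = 4.9e-07) against WT and 1.34 ± 0.31 (adjusted p = 4.1e-04) against CKO at 90 dpi, whose animals held 6.47 to 11.3 CPM. Both values share the tumours, so the gap between them is the lower fitted level of WT at 150 dpi than of CKO at 90 dpi. Siglech was 2.83, 6.54 and 7.09 CPM in WT at 150 dpi and 1.70, 12.8 and 21.9 in tumours. Of the tumours, 2 (1.70 and 2.83 CPM) were at or under the lowest WT animal, and the other 5 were above the highest. Siglech passed against WT at 1.06 ± 0.40 (adjusted p = 0.0288), and did not pass against CKO at 90 dpi, at 0.63 ± 0.37 (adjusted p = 0.159). The call against WT was lost in 6 of 44 alternative settings, with adjusted p up to 0.103, and 5 of these each left out 1 animal: Tumor_16713, Tumor_16844, Tumor_21354, WT_21592 or WT_22062.

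Aif1, the actin-binding marker, had the largest log2 rise of the 9. WT animals at 150 dpi held 1.00, 1.86 and 8.85 CPM and tumours 3.01, 13.5 and 58.6. The groups overlapped through the tumour at 3.01 CPM, and the other 6 tumours, from 10.9 CPM up, were above every WT animal. The rise was 2.56 ± 0.54 (adjusted p = 1.8e-04) against WT and 1.98 ± 0.49 (adjusted p = 9.1e-04) against CKO at 90 dpi. Sall1, the identity factor, went the other way. It was 107, 170 and 221 CPM in WT at 150 dpi and 31.2, 78.1 and 140 in tumours, with 5 of 7 tumours below the lowest WT animal. Sall1 fell by 0.99 ± 0.20 (adjusted p = 8.9e-05) against WT and by 0.76 ± 0.19 (adjusted p = 0.0013) against CKO at 90 dpi.

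**Figure D2:**
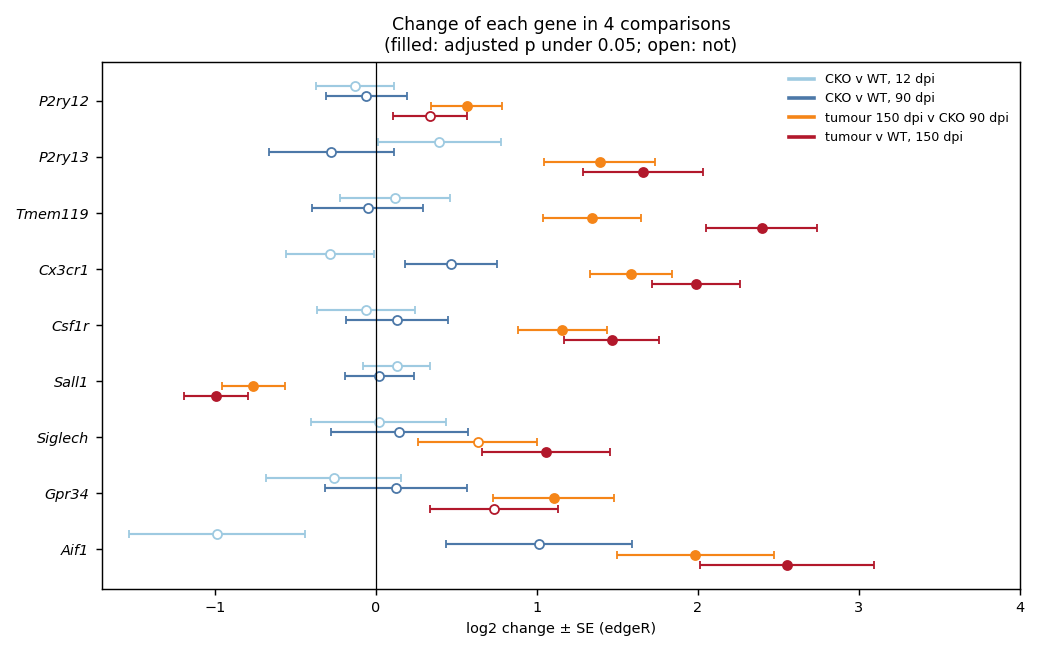
Log2 change ± SE of each gene by edgeR in 4 comparisons, with filled points for an adjusted p under 0.05 and open points for the rest. The 2 CKO against WT comparisons have all points open, with Aif1 the farthest from 0 at -0.98 and 1.01, and the 2 tumour comparisons, which share the 7 tumours, lie to the right of 0 for every gene except Sall1.

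The change of the genotype difference from 90 to 150 dpi tested whether tumours against WT differed from CKO against WT. It shares the tumours and the WT animals at 150 dpi with the comparison above. Of the members, 4 changed upward and 1 downward (background 30%, with 14.2% upward and 15.8% downward): Tmem119 by 2.45 ± 0.48 (adjusted p = 1.3e-04), P2ry13 by 1.94 ± 0.53 (adjusted p = 0.00482), Cx3cr1 by 1.52 ± 0.38 (adjusted p = 0.00228), Csf1r by 1.33 ± 0.42 (adjusted p = 0.0149) and Sall1 by -1.02 ± 0.29 (adjusted p = 0.00749), all by edgeR. Without the 2 libraries that stood apart, these 5 remained called, Csf1r with an adjusted p of 0.0365, and the 7 calls of tumour against WT also remained. Against CKO at 90 dpi 7 of the 8 calls remained without them, Gpr34 at 0.96 (adjusted p = 0.0354), and P2ry12 was lost.

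Tumours varied among themselves. The SD between libraries of an animal was 0.20 to 0.49 on the log2(CPM + 0.5) scale over the 9 genes, from CPM without TMM scaling. It rests on 10 animals with 2 sound libraries, which were the 7 tumours and otherwise CKO animals, with no WT animal among them. The SD between WT animals at 150 dpi was 0.31 to 1.07, and the SD between tumours was 0.67 to 1.28. It was larger in tumours than in WT for 8 of 9 members, as for Csf1r at 0.95 against 0.31, and smaller for Gpr34, at 0.82 against 1.07, with no test made. The 8 members other than Sall1 summed to 121, 170, 176, 180, 325, 327 and 496 CPM in the 7 tumours, against 86.1 to 117 in WT at 150 dpi. The groups did not overlap on this sum, though the highest WT animal (117) and the lowest tumour (121) were close. Of all single genes, 15.7% did not overlap in this comparison, a share that is no background for a sum of chosen genes. With Sall1, which fell, included, the sums overlapped, at 217 to 338 CPM in WT and 252 to 573 in tumours. The separation thus rests on leaving out the member that was called lower, and it is a description only. Tumor_16713, Tumor_16844 and Tumor_21354 were high on the sum of 8 members. These 3 were also the highest for P2ry13, Tmem119, Cx3cr1, Csf1r, Siglech and Aif1. Sall1 was 31.2, 78.1 and 76.9 CPM in these 3 and 71.7 to 140 in the other 4.

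P2ry12 and Gpr34 did not follow that division. P2ry12 was 52.2, 51.0 and 48.8 CPM in Tumor_16839, Tumor_21354 and Tumor_21256, and 13.7 in Tumor_21349. Gpr34 was highest in Tumor_16839 at 23.7 CPM and lowest in Tumor_21349 at 4.24. In Tumor_16839, P2ry12 and Gpr34 thus stood high while Siglech, at 2.83 CPM, and Tmem119, at 8.75, were the second lowest and lowest of the 7. Against the WT mean at 150 dpi, Tumor_21349 differed by -1.38 for Siglech on the log2(CPM + 0.5) scale, and by 2.14 for Aif1 and 1.48 for Tmem119.

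**Figure D3:**
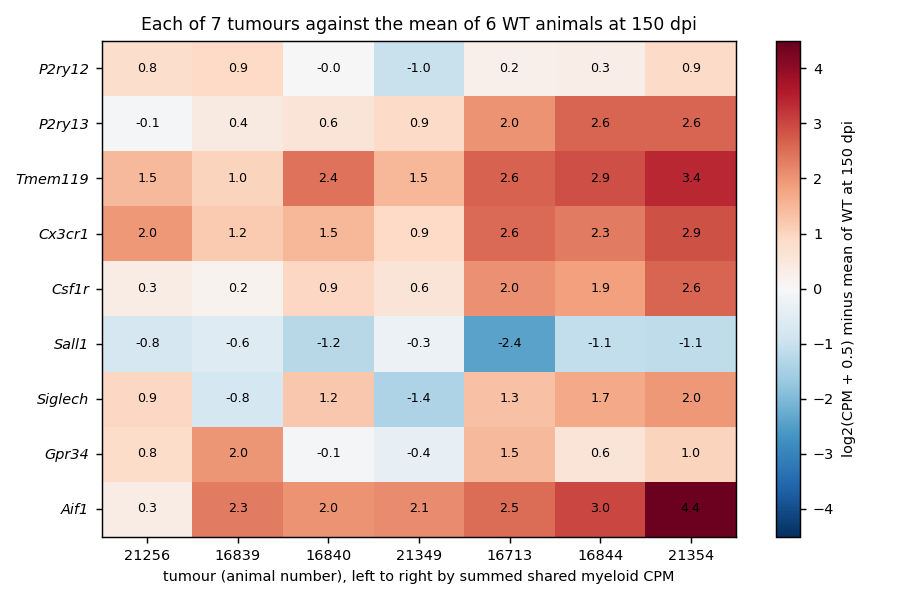
Log2(CPM + 0.5) of each gene in each of the 7 tumours minus the mean of the 6 WT animals at 150 dpi, with tumours ordered from left to right by their summed CPM of 14 shared myeloid genes. Tmem119 and Cx3cr1 are above the WT mean in all 7 tumours and Sall1 is below it in all 7, while P2ry12 is above it in 5 tumours and below it in 2.

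Other genes of microglia and their partners are given from lists of known markers, in tumours against WT at 150 dpi. There 24.3% of all genes were called higher and 21.9% lower, the shares to set beside each list below. Of 9 further homeostatic genes tested, 5 rose in tumours against WT and 0 fell (median 1.18), among them Fcrls, from 4.47 ± 2.90 to 22.1 ± 18.5 CPM. All 14 genes shared by microglia and other macrophages rose (median 2.32), such as the complement gene C1qa by 2.95 ± 0.41 (adjusted p = 2.4e-07) and the protease gene Ctss by 2.62 ± 0.31 (adjusted p = 9.0e-09). Of 9 genes known for activated microglia 7 rose and 0 fell. Lgals3, which encodes a galectin, was at 0 in all 6 WT animals and between 1.48 and 16.7 CPM in tumours. Apoe, the lipid carrier, rose from 280 ± 75.5 to 695 ± 450 CPM. The median of the activated genes was 5.04, and it was the same with Lgals3 at its lower bound (at least 108-fold higher, with 3 counts over the WT group as the floor). These medians stood above that of the 9 members (1.47) for the activated and shared genes and below it for the further homeostatic ones, and no test of that difference was made. Summed CPM gave another order. The median sum went from 363 in WT to 926 in tumours for the activated genes and from 155 to 638 for the shared ones. It went from 71.8 to 212 for the further homeostatic genes and from 260 to 282 for the 9 members.

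The ligands of these receptors moved in both directions. All 4 in the list were called, 2 higher and 2 lower, where 46.2% of all genes were called. The naming of Csf1 and Il34 followed sight of their values. Cx3cl1, the ligand of Cx3cr1 that neurons make, was 301 to 479 CPM in WT at 150 dpi and 17.2 to 58.3 in tumours, a fall of 3.54 ± 0.22 on the log2 scale (adjusted p = 8.2e-16), while its receptor rose. The 2 ligands of Csf1r parted: Csf1 rose by 1.90 ± 0.36 (adjusted p = 4.2e-05) and Il34, the neuronal one, fell by 1.57 ± 0.32 (adjusted p = 1.2e-04). Tgfb1, a cytokine that microglia need to keep their identity, rose by 2.22 ± 0.52 (adjusted p = 5.5e-04) from a level of 1.04 ± 0.58 CPM. Over the 6 neuron markers 5 fell and 0 rose, and their sum was 203 to 1231 CPM in tumours against 5950 to 9257 in WT. The part of fewer neurons in the falls of Cx3cl1 and Il34 was not tested.

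Among 9 transcription factors and TGF-beta receptors of microglia, 6 rose and 3 fell. Irf8, a factor of the macrophage lineage, rose by 3.91 ± 0.60 (adjusted p = 1.3e-06), and Mef2c, which neurons also express, fell from 815 ± 114 to 114 ± 33.0 CPM (adjusted p = 1.5e-16). Markers of other cell types are set beside the 24.3% of all genes called higher and the 21.9% called lower. Of 8 border macrophage markers 2 rose (25%) and 0 fell, a share near that of all genes, and their sum was 9.03 to 198 CPM in tumours and 5.67 to 25.2 in WT, the 2 highest being Tumor_16713 at 198 and Tumor_21354 at 94.1. These are 2 of the 3 tumours with the highest member sums, whereas Tumor_16844 held 13.3. Siglec1, the border marker with the largest rise, went from 1.97 ± 1.59 to 14.1 ± 13.7 CPM. Monocyte and neutrophil markers passed the filter for 2 of 7 genes, with 0 called, and summed to 3.01 to 33.3 CPM in tumours and 1.34 to 5.11 in WT. Lymphocyte markers passed for 1 of 6, with 0 called. Oligodendrocyte markers rose for 1 and fell for 4 of 7, and 8 of 10 OPC markers rose. The part of each in the members' values was not tested.

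The members were also set against shared myeloid RNA. Each was taken as a percent of the summed 14 shared myeloid genes, which was 102 to 191 CPM in WT at 150 dpi and 498 to 1674 in tumours, a measure added after the levels were seen. P2ry12 was 10.2 to 37.8% of that sum in WT and 2.15 to 9.80% in tumours, Csf1r 16.2 to 21.0% and 5.52 to 14.6%, and Sall1 56.0 to 207% and 4.13 to 21.9%. For these 3 all tumours lay below all WT animals, which held for 54.4% of all genes, since the sum itself rose. Tmem119 and Aif1 kept overlapping shares: 1.86 to 5.43% against 1.63 to 4.25% for Tmem119, and 0.616 to 4.64% against 0.604 to 3.50% for Aif1. P2ry13, Cx3cr1, Siglech and Gpr34 overlapped as well, with lower medians in tumours than in WT, such as 2.18% against 4.96% for P2ry13. Against CKO at 90 dpi 1 member, Sall1, lay wholly below, with a background of 49.3%. This rested on the second library of CKO_20647: without the 2 libraries P2ry12, Siglech and Sall1 lay wholly below, against a background of 35%, P2ry12 by little (at most 9.80% in tumours and at least 9.84% in CKO).

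Across animals within groups, the members other than Sall1 had a higher median r between pairs in the 7 tumours than outside them. No test of that difference was made. Likeness was measured as Pearson's r of log2 CPM left after group means and sex, over the 36 animals that remain without the 2 libraries that stood apart, and is a description, since genes of 1 library share its depth and its cell makeup. Among the 28 pairs without Sall1, r had a median of 0.33 (-0.36 to 0.63) over 29 animals without tumour and of 0.54 (-0.12 to 0.95) over the 7 tumours. The closest pairs in tumours were Tmem119 with Csf1r at 0.95 and P2ry13 with Csf1r at 0.93. Outside tumours P2ry13 with Siglech was the closest, at 0.63. P2ry12 was most like Gpr34 in both, at 0.59 outside tumours and 0.76 in them, whereas with its neighbour P2ry13 it reached 0.40 and 0.05. All 8 pairs of Sall1 were negative in tumours, from -0.74 to -0.24.

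**Figure D4:**
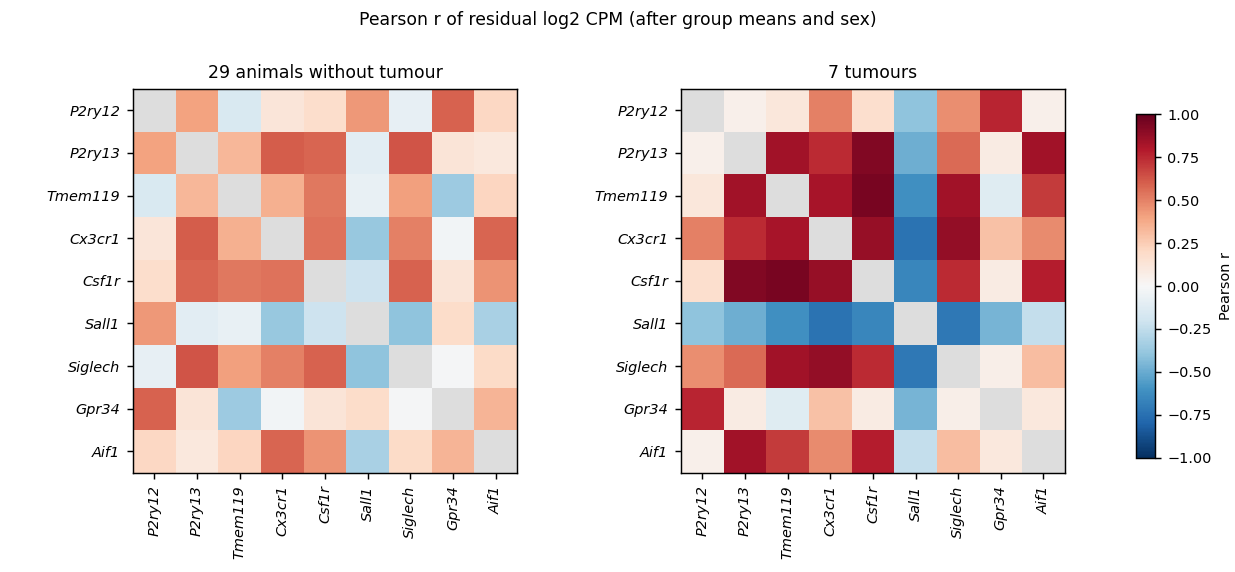
Pearson's r between pairs of the 9 genes in residual log2 CPM (after group means and sex), over 29 animals without tumour (left) and 7 tumours (right), with red for positive and blue for negative values. The 8 pairs with Sall1 are all negative in tumours, and the median of the 28 other pairs is 0.33 on the left and 0.54 on the right.

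The 10 genes most like the mean of the 9 members over these 36 animals had an r from 0.79 to 0.72, and among them were Apod, C1qb, Clu, Them4, Slco2b1, Ppfibp2, Blnk, Ptgdr and Ptgds. C1qb is a complement gene of the shared myeloid list, and Apod and Ptgds are known from oligodendrocytes and the meninges. With all 37 animals, the 10 were led by Ppfibp2 at 0.89 and only 2 of them were shared, Slco2b1 and Ppfibp2. Without Sall1 in the mean 7 of the 10 were shared, and the myelin genes Mbp and Mog entered. Over 36 animals the mean of the 8 members other than Sall1 had an r of 0.68 with shared myeloid genes, 0.68 with the further homeostatic genes and 0.70 with oligodendrocyte markers, against 0.26 with OPC markers and -0.13 with neuron markers. The sum of oligodendrocyte markers was 1461 to 2635 CPM in WT at 150 dpi and 292 to 1502 in tumours, and its part in these correlations was not tested.

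In the small libraries, most members were absent from many libraries and high in a few. These libraries used poly(A) RNA and PCR, without molecular identifiers, and bulk libraries used total RNA and linear amplification, so levels are not compared between the 2 kinds. Depth was 1639385 to 6489275 counts in 10-cell libraries and 1906783 to 5160788 in pool-and-split controls, and intervals and floors below cover counting error only. Csf1r was above 0 in 41 of 56 10-cell libraries at 12 dpi (73.2%, exact 95% interval 59.7 to 84.2) and in 55 of 56 at 90 dpi (98.2%, 90.4 to 99.95). Sall1 was above 0 in 45 and 50 of 56. At the other end, Gpr34 was above 0 in 7 of 56 (12.5%, 5.18 to 24.1) and 15 of 56 (26.8%, 15.8 to 40.3), and P2ry13 in 9 and 20. Between these lay P2ry12 with 25 and 42, Tmem119 with 16 and 30, Cx3cr1 with 22 and 40, Siglech with 27 and 47, and Aif1 with 26 and 37 of 56.

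All 9 members were detected in more of the 10-cell libraries at 90 than at 12 dpi, and the libraries at 90 dpi also detected more genes, with a median of 10109.5 against 7550. The part of that difference in the members' counts was not tested. In the pool-and-split controls, whose median gene numbers were 8690.5 and 8739, detection rose for 2 members, Cx3cr1 from 20 to 28 and Aif1 from 23 to 26 of 40. It was equal for Tmem119, at 18 of 40, and Sall1, at 34. The other 5 were detected less often, such as P2ry12 in 23 and 18 of 40 and Csf1r in 36 and 34. Pdgfra, the receptor that marks OPCs, was above 0 in 36 and 49 of 56 10-cell libraries and in 26 and 34 of 40 controls, at medians of 1.42, 7.32, 1.5 and 2.43 CPM. Of the 10 OPC markers, 3 and 2 were above 0 in more 10-cell libraries than Csf1r at 12 and 90 dpi, and 2 and 4 in more controls.

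**Figure D5:**
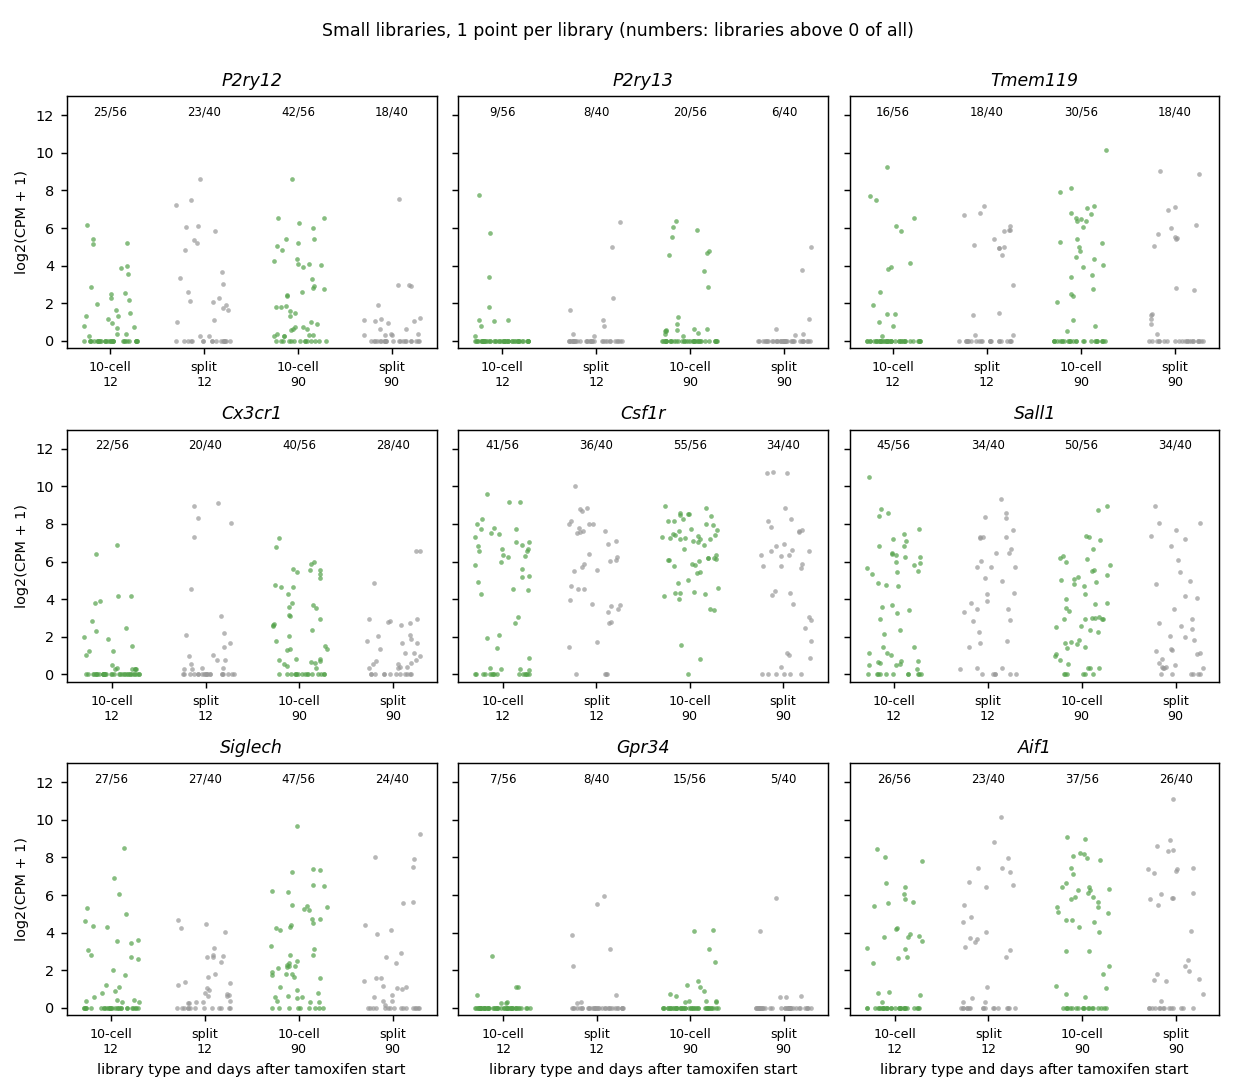
Log2(CPM + 1) of each gene in every small library, 10-cell (green) and pool-and-split (grey), at 12 and 90 dpi, with the number of libraries above 0 over each column. Points form a row at 0 and a scatter reaching 8 to 11 on the log2 axis for all genes except Gpr34, and the highest control is above the highest 10-cell library for 5 of the 9 genes and below it for Sall1, Tmem119, P2ry13 and Siglech.

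A few libraries carried most of the signal. The 5 highest of 56 10-cell libraries at 12 dpi held 91.0% of the summed CPM of Tmem119 and 48.7% of that of Csf1r, and at 90 dpi 68.0% and 26.5%. The highest 10-cell values were 1468 CPM for Sall1, 1133 for Tmem119, 801 for Siglech, 779 for Csf1r and 543 for Aif1. Pool-and-split aliquots reached 2200 CPM for Aif1 and 1764 for Csf1r, with the aliquot at 2200 for Aif1 having P2ry12, P2ry13, Tmem119, Siglech and Gpr34 at 0. The 10-cell library with the highest sum of the 8 members other than Sall1, 1802 CPM (90 dpi, male set 1), held Siglech at 801, Aif1 at 504, Tmem119 at 278 and Csf1r at 203. At least 3 of these 8 members reached 10 CPM in 11 of 56 10-cell libraries at 12 dpi and 35 of 56 at 90 dpi, and in 13 and 10 of 40 controls. None of the 8 did in 19, 3, 3 and 6 libraries.

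Which members accompanied Csf1r at 10 CPM or more is given as counts by time, with no test, since the 10-cell libraries at 90 dpi also detected more genes. At 12 dpi Cx3cr1 reached that level in 6 of the 31 10-cell libraries with Csf1r and in 0 of the 25 without it, and at 90 dpi in 18 of 52 and 0 of 4. In controls these counts were 3 of 31 and 3 of 9 at 12 dpi, and 1 of 26 and 2 of 14 at 90 dpi. Aif1 was present in 15 of 31 10-cell libraries with Csf1r and 2 of 25 without it at 12 dpi, and in 28 of 52 and 1 of 4 at 90 dpi. In controls Aif1 counted 13 of 31 and 3 of 9, then 13 of 26 and 4 of 14. Sall1 was present in 16 of 31 and 11 of 25 10-cell libraries at 12 dpi, and in 24 of 52 and 1 of 4 at 90 dpi. At 90 dpi the 4 libraries without Csf1r are too few to compare. Monocyte and neutrophil markers were all at 0 in 36 and 33 of 56 10-cell libraries and in 30 and 31 of 40 controls.

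Between times, no member passed the test. Libraries were summed within sets of time, sex and the number in the title (4 sets per time), and edgeR called 0 of 9 members in 10-cell sets (0 by DESeq2 and 0 at an unadjusted p under 0.05) against a background of 0%. The largest difference for its error was Sall1, at -1.25 ± 0.56 on the log2 scale (adjusted p = 0.685). In pool-and-split sets edgeR called 0 of 9 as well (1 at an unadjusted p under 0.05; background 0%), and DESeq2 called 1. That member was Cx3cr1, at -3.20 ± 0.84 with an adjusted p of 0.581 by edgeR, and 97.5% of its summed CPM in the controls at 12 dpi came from 5 of 40 aliquots. Sets varied widely, with a biological coefficient of variation (edgeR, common to all genes) of 0.995 for 10-cell and 1.131 for pool-and-split sets.

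No member passed the test of spread in 10-cell libraries against aliquots of a pool. Of the 6 members detected in at least 50% of libraries, limma on absolute deviations from the median called 0, with 0 at an unadjusted p under 0.05 and a background of 0.0452% of 8840 genes. With the detection limit at 10%, all 9 entered and 0 were called (background 0.04% of 15003 genes). Differences in mean absolute deviation ran from -0.28 for Sall1 to 0.29 for P2ry13 on the log2(CPM + 1) scale. For Csf1r, the member detected most often, the difference was -0.03 ± 0.27 (SE, adjusted p = 0.993). A larger spread between captured cells than between aliquots was not detectable for these genes.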

How the data were processed

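RNA from laser-captured cells was sequenced in 48 bulk libraries of 37 mice and in 192 small libraries. The authors deposited expected counts for each gene, made with RSEM and Bowtie2 on GRCm38, per the submitters' processing notes, which give no versions. Bulk sections were 10 µm and small-library sections 8 µm thick, per the labels. ERCC rows were left out, libraries of an animal were summed, and expected counts were rounded. Bulk groups were compared in 1 fit of 37 animals with edgeR 4.0.16 (R 4.3.3): filterByExpr (minimum count 10, total 15), TMM scaling, sex as covariate, quasi-likelihood F tests and Benjamini-Hochberg adjustment over all 16349 genes tested, called at 0.05. Bulk CPM values of animals are scaled by TMM. CPM of small libraries and of the paired libraries of 1 animal are per total counts, without TMM. Small libraries were summed into 8 sets per kind for the same test, and spread was tested with limma 3.58.1 on single libraries. DESeq2 1.42.0 was an alternative. Depth is given in the report and limits the low genes most. The tests were tried on simulated counts. Detection intervals are exact (Clopper-Pearson).

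All 9 members are named. Of other lists, the largest rise, the largest fall and the highest level may be named, and 1 gene that these rules name is not reported here. The members, lists and tests were chosen with earlier results of these data known. Nothing says whether small-library sets came from separate animals, so p-values over them may measure technical spread. Added after seeing the data were the fits without 2 libraries, GAGGAA, the ratio to myeloid genes, the counts by time in small libraries and the likeness settings other than 37 animals. Symbols matched a RefSeq promoter window (GRCm38.p6) for 6 of 9 members.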

Additional observations from a re-analysis of the deposited data

Results flagged for a closer look

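A single animal stood far from its group for 5 of the 54 pairs of gene and bulk group examined. The rule's rate of about 1 in 20 assumes independent values with a normal spread. Pairs here share animals and CPM are on a linear scale, so that rate is no background for this count. In WT at 150 dpi, WT_21593 held Tmem119 at 9.17 CPM with the next animal at 4.59. WT_22064 of the same group was the highest both for Cx3cr1, at 23.1 CPM (next 13.5), and for Aif1, at 8.85 (next 3.57), and it was also the lowest for Sall1 and P2ry12, at 107 and 19.5 CPM. Among tumours, Tumor_21354 held Aif1 at 58.6 CPM with the next at 22.0. In WT at 90 dpi, WT_21167 held Cx3cr1 at 0 with the next animal at 11.9; this library held 93694 counts, in which 3 counts are 32.0 CPM, so a level like that of the others was not detectable in it.

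The difference between genotypes changed from 90 to 150 dpi for 5 members by the interaction term in edgeR: Tmem119 by 2.45, P2ry13 by 1.94, Cx3cr1 by 1.52, Csf1r by 1.33 and Sall1 by -1.02 on the log2 scale. Tumours replaced CKO cells between these times, so time and tumour cannot be told apart. Of all genes, 30% were called by the same term.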

How the results depend on the processing

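The number of members called stayed within 1.5 times in every bulk comparison and alternative run. It was 5 to 8 for tumour against WT (main 7), 6 to 9 for tumour against CKO at 90 dpi (main 8) and 5 to 6 for the interaction of genotype and time between 90 and 150 dpi (main 5), both over leaving out each animal in turn and over the other settings, and 0 throughout for the other 6. The 5 arose where a mean of at least 10 CPM was required, which left 6 members. Of 3943 member results 18 lost and 6 gained a call, and 87 changed sign, none of them for a member and comparison that had passed the test. Aif1 gained the 90 to 150 dpi call without WT_22064, at 2.59 (adjusted p = 0.0073). In pool-and-split sets DESeq2 called 1 member, Cx3cr1 lower, and 580 genes in all where edgeR called 0; the cause was not tested. With the set number as a replicate block the tests of the sets and of spread gave 0 members called, as without it; the numbers pair no sample by the labels. The median log2 of all genes in tumour against WT was 0.06 with TMM, 0.22 with RLE and 0.21 with DESeq2, a shift that reversed no member there. Depth limits Gpr34, Aif1 and Siglech most in the shallow animals.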
